A study of Mus musculus with 2 samples.

Results

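The proteasome subunit genes were taken as every protein-coding autosomal gene of the GENCODE mouse annotation whose symbol is Psma, Psmb, Psmc, Psmd, Psme, Psmf or Psmg followed by digits, with the exception of Psmb8 and Psmb9. The rule gave 45 genes of 20807 autosomal protein-coding genes. They were followed in DNase-seq of lung from male B6CASTF1/J mice (an F1 hybrid strain) aged 14 days, in 1 group of 2 libraries. The labels describe replicate 2 as 3 pooled males and replicate 1 as male without naming a pool, and both carry 1 donor record, so shared animals cannot be told apart from separate ones. There was no treated, mutant or other group, so every comparison lies within a library, and the values of both libraries stand side by side.

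The proteasome is the protease that degrades proteins tagged with ubiquitin. Its barrel-shaped core, the 20S particle, has outer rings of alpha subunits (Psma genes), which gate the entry, and inner rings of beta subunits (Psmb genes), some of which carry the proteolytic sites. The 19S regulatory particle holds a ring of ATPases (Psmc genes) that unfold substrates and non-ATPase subunits (Psmd genes) that bind or remove ubiquitin or act as scaffold, while Psme genes encode activators, Psmf1 an inhibitor and Psmg genes chaperones that assemble the core. Most subunits are needed in every cell, whereas Psma8 is known from the testis, Psmb11 from the thymic cortex, and Psmb10, Psme1 and Psme2 as genes induced by interferon.

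DNase I cuts accessible DNA, and a peak is a stretch of DNA with frequent cuts in 1 library. Replicate 1 held 94786 peaks and replicate 2 held 77403, and the read depth of the libraries is unknown. A promoter peak lay within 1 kb of any annotated transcript 5′ end of a gene, and the highest-scoring one stood for the gene. The authors' score of a peak served only to rank it within its own library: a percentile of 95.6 means that the score was at or above that of 95.6% of the peaks of that list. In lung tissue, promoter peaks were present in both libraries at 7 of 8 markers of lung epithelium (all but Scgb1a1), 4 of 4 of endothelium, 4 of 4 of mesenchyme, 2 of 6 of immune cells, 1 of 3 of the germ line (Dazl), 1 of 2 of thymic epithelium (Aire), 0 of 2 of liver and 0 of 2 of brain. In a whole tissue, a peak in few cells and a weak peak in many cells cannot be told apart.

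A footprint is a short stretch within accessible DNA that was cut less than its surroundings. The stretches below are shown because they lay in a footprint of both libraries and hold a motif searched in all promoters. Capitals mark the motif, and each stretch is printed 5′ to 3′ on the strand of its gene. All come from the C57BL/6J reference sequence (GRCm38, which shares the coordinates of mm10), so that alleles of the other parent strain are not shown. The first set holds motifs named for single factors or families with few sites among the members: the cAMP response element (CRE), the core of the antioxidant response element (ARE, the site of NFE2L1 and NFE2L2), the core of the nuclear respiratory factor 1 site, and the sites of ZBTB33, YY1 and IRF proteins.
Psmb2, CRE, chr4:126677600-126677626, plus strand: cgagaggTGACGTCAttgggccgcgcc
Psmb5, ARE core, chr14:54618026-54618044, minus strand: tgTGACGTCGCggcgttgc
Psmd9, ARE core, chr5:123228157-123228185, plus strand: ggTGACCCCGCccacttccaagctccacc
Psma2, nuclear respiratory factor 1 core, chr13:14613110-14613129, plus strand: ctcttgCGCATGCGcaaggg
Psmg1, nuclear respiratory factor 1 core, chr16:95990914-95990935, minus strand: gggccggcgCGCATGCGctgtc
Psmd5, ZBTB33, chr2:34870975-34870994, minus strand: gtaagaTCTCGCGAGAttca
Psmd7, YY1, chr8:107588513-107588536, minus strand: AAGATGGCGcccctggcgacaggg
Psmb4, IRF, chr3:94886947-94886965, minus strand: ccacTTCCGTTTCcggtga

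The second set holds the 5 ETS sites (CCGGAAG on either strand) that were footprinted in both libraries. ETS proteins are a large family of transcription factors, and theirs was the motif with the widest gap in percentage points between the members and all genes.
Psmc1, ETS, chr12:100110173-100110190, plus strand: aCTTCCGGcggtggcgat
Psmc6, ETS, chr14:45329723-45329744, plus strand: gCCGGAAGgggcggagccagtc
Psmd7, ETS, chr8:107588440-107588457, minus strand: aaCCGGAAGgggaggtgc
Psme3, ETS, chr11:101316202-101316223, plus strand: ggctgtgacgcaaCTTCCGGcg
Psme4, ETS, chr11:30771709-30771731, plus strand: ccgtggccccgccCCGGAAGtga

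The third set shows the DNA directly upstream of the 5′ ends of the member with the highest promoter peak (Psmb3), the lowest (Psmc1), the catalytic subunit gene Psmb5, and Psmb10, whose principal start had weak peaks only. Capitals mark any of the 15 motifs searched: CCAAT (the site of NFY) in Psmb3, the ARE core in Psmb5 and an E-box (CACGTG) in Psmb10.
Psmb3, chr11:97703279-97703398, plus strand: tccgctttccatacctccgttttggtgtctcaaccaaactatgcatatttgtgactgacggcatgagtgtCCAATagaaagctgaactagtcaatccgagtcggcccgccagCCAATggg
Psmc1, chr12:100110034-100110153, plus strand: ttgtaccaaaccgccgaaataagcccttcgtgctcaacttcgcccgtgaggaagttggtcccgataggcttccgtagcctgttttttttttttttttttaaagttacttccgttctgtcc
Psmb5, chr14:54618023-54618142, minus strand: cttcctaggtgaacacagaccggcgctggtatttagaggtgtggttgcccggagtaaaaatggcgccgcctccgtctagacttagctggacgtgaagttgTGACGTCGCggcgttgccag
Psmb10, chr8:105938445-105938564, minus strand: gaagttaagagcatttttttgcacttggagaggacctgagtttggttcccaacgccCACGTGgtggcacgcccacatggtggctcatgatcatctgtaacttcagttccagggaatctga

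Promoter peaks were present at nearly all proteasome subunit genes. In each library 43 of the 45 members (95.6%) had one, against 68.0% of all 20807 genes in replicate 1 and 65.5% in replicate 2. The same 43 members had a peak in both libraries, against 65.0% of all genes. The 2 members without a promoter peak were Psma8 and Psmb11, both restricted to other tissues. No test was made of these shares, since genes are not replicates.

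The promoter peaks of the members were also among the higher peaks of each library. Their median percentile was 94.5 in replicate 1 and 93.3 in replicate 2 (mean 93.9 ± 0.801, SD, n = 2 libraries), against 90.3 and 90.02 for all genes with a promoter peak. The lower part of the range was absent: all 43 members with a peak lay at or above percentile 75, against 75.4% and 75.5% of all genes with a peak. At or above percentile 90 lay 29 members (67.4%) in replicate 1 and 28 (65.1%) in replicate 2, against 50.9% and 50.1% of all genes with a peak. Cytosolic ribosomal protein genes, another set of genes that most cells use, had a promoter peak at 69 of 72 genes in both libraries, with median percentiles of 96.6 and 95.6. All 69 likewise lay at or above percentile 75, and 82.6% and 84.1% lay at or above percentile 90, so that these traits were not particular to the proteasome subunit genes.

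**Figure D1:**
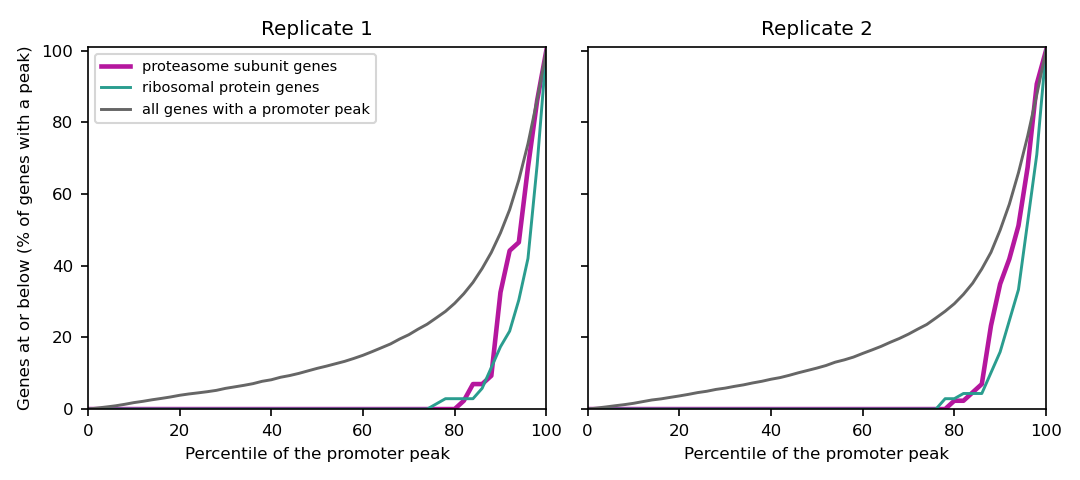
Share of genes (y axis, % of genes with a promoter peak) whose promoter peak lies at or below a percentile of its library (x axis), for each replicate, for proteasome subunit genes, ribosomal protein genes and all genes with a promoter peak. The curve of the proteasome subunit genes stays at 0 up to the lowest member, at 81.5 in replicate 1 and 78.8 in replicate 2, while the curve of all genes starts near the low end of the axis.

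The order of the members was much alike in both libraries. Across the 43 genes the percentiles correlated with Pearson's r 0.931 and Spearman's rho 0.910, a description over genes of the same tissue. The percentile was higher in replicate 2 for 17 members, and the differences (replicate 2 minus replicate 1) ran from -5.85 for Psma4 to 3.59 for Psmb6. The highest promoter peaks overlapped between libraries at 42 of 43 members, with Psmd13 as the exception. That overlap was not counted over all genes, so it does not set the members apart.

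**Figure D2:**
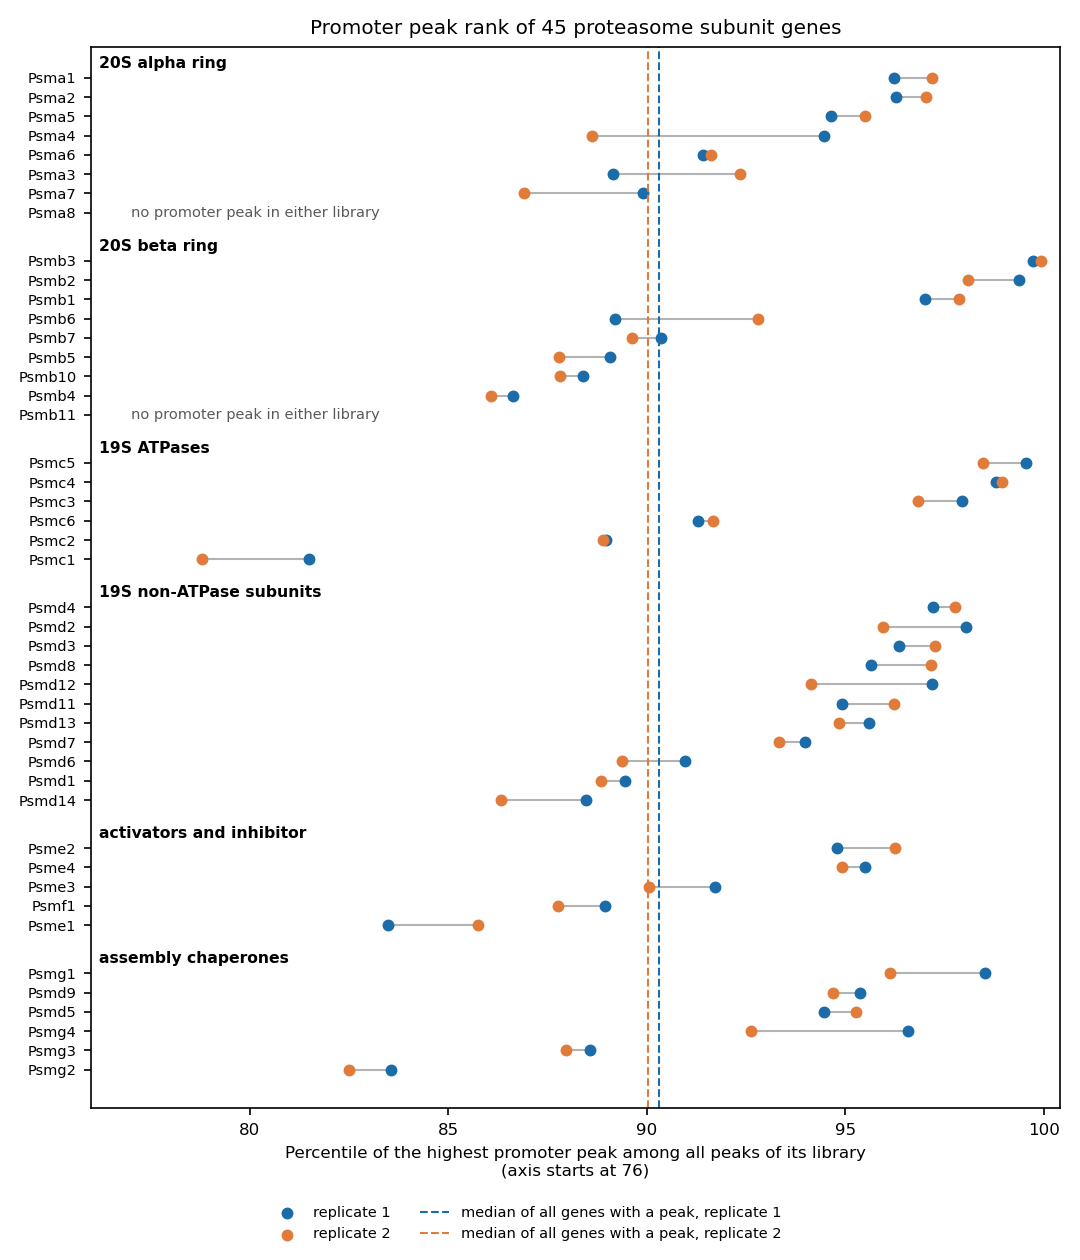
Percentile of the highest promoter peak (x axis, starting at 76) of each proteasome subunit gene, by role and, within a role, from the highest to the lowest mean, with 1 point per library and dashed lines at the medians of all genes with a promoter peak (90.3 and 90.02). Psmb3 lies highest and Psmc1 lowest in both libraries, and Psma8 and Psmb11 have no point.

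Among the alpha subunits, 7 of 8 had a promoter peak, with medians of 94.5 in replicate 1 and 92.3 in replicate 2. Psma1, at 96.2 in replicate 1 and 97.2 in replicate 2, and Psma2, at 96.3 and 97.0, were the highest, in opposite order in the libraries, and differed by less than either gene's own spread between libraries. Psma7 was the lowest of the 7 by the mean, at 89.9 and 86.9, and in replicate 1 Psma3 lay below it, at 89.1 (92.3 in replicate 2). Psma4 had the widest gap between libraries, at 94.5 and 88.6.

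Psma8, the alpha subunit of the testis proteasome, had its nearest peak 22911 bp away in replicate 1 and 22851 bp away in replicate 2. A larger, more permissive peak list of the authors held 1 promoter peak of Psma8 in replicate 1, at percentile 2.12 of that list, and 0 in replicate 2. In the authors' track of false discovery rates, 71 bases around its 5′ ends reached 0.05 in replicate 1 and 0 reached 0.001. In replicate 2, 0 bases reached 0.05. The 43 members with a peak had 501 to 1644 bases (median 828) at 0.001 or below in replicate 1 and 460 to 1533 (median 805) in replicate 2. Of the germ line markers, Ddx4 and Sycp3 had no promoter peak either, while Dazl had one, at 91.6 in replicate 1 and 90.8 in replicate 2.

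Among the beta subunits, 8 of 9 had a promoter peak, with medians of 89.8 and 91.2, the lowest median of the 6 roles in replicate 1. Psmb3, a structural beta subunit, had the highest promoter peak of all members, at 99.7 (rank 256 of 94786) in replicate 1 and 99.9 (rank 53 of 77403) in replicate 2. Psmb2 was next among the beta subunits, at 99.4 and 98.1. The genes of the constitutive catalytic subunits lay lower and close together. Psmb5, which has the chymotrypsin-like activity, was at 89.1 and 87.8, Psmb6, which has the caspase-like activity, at 89.2 and 92.8, and Psmb7, which has the trypsin-like activity, at 90.4 and 89.6. The differences among these 3 genes were no larger than the gap of Psmb6 between libraries except for Psmb5 against Psmb6 in replicate 2. Psmb4 was the lowest of the 8, at 86.6 and 86.1.

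Psmb11, the beta subunit of the thymic cortex, is the neighbour of Psmb5 on chromosome 14, and its nearest peak, 3293 bp away in both libraries, was the promoter peak of Psmb5. Of 4002 bases examined around the 5′ ends of Psmb11, 0 reached a false discovery rate of 0.05 in either library, and the larger peak lists held 0 promoter peaks of it. The window of 300 bp around its outermost 5′ end (250 bp upstream, 50 bp downstream) was poor in CpG dinucleotides, with an observed over expected ratio of 0.0639. The members with a peak ranged from 0.386 (Psmd1) to 1.14 (Psmg2), with a median of 0.797, against a median of 0.768 over all genes with a peak in both libraries. Psma8 had a ratio of 0.764, within the range of the members with a peak. Of the thymic epithelium markers, Foxn1 had no promoter peak and Aire had one.

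Psmb10, the interferon-induced counterpart of Psmb7, had its highest peak away from its principal 5′ end, the one of the transcript that carries the APPRIS principal tag. That peak, chr8:105936981-105937220 in both libraries, was at 88.4 in replicate 1 and 87.8 in replicate 2, and its centre lay 1343.5 bp inside the gene, near the 5′ ends of shorter annotated transcripts. At the principal 5′ end the peaks were at 26.7 in replicate 1 and 41.0 in replicate 2. Counted only from principal transcripts, the highest peak of Psmb10 within 1 kb was at 44.3 and 41.0, the lowest of all 43 members in both libraries. Counted the same way, the median of the members was 94.5 and 92.8, and 41 of the 43 kept the same highest peak in each library, the exceptions being Psmb1 and Psmb10.

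Psmb1, another structural beta subunit, had its highest peak, at 97.0 and 97.9, near an upstream alternative 5′ end. That peak covered the 5′ end of the neighbouring gene Tbp in both libraries, and the upstream 5′ end of Psmb1 in replicate 2 only. The peak at its principal 5′ end was at 94.7 in replicate 1 and 92.4 in replicate 2. Unlike at Psmb10, a peak above the median of all genes lay at or near both starts of Psmb1.

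**Figure D3:**
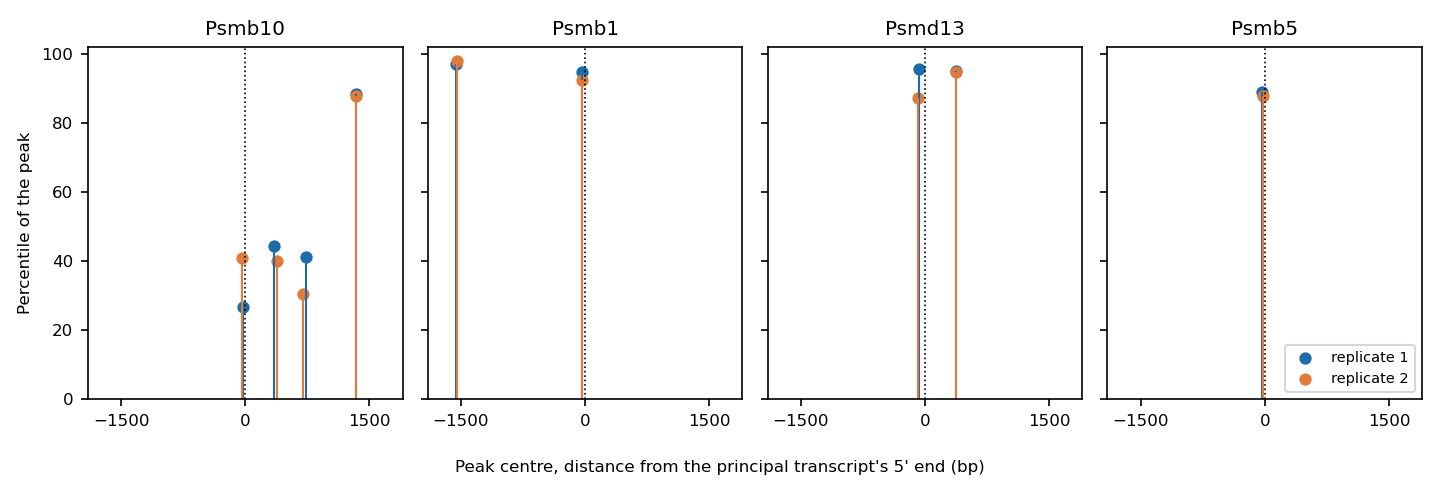
Every promoter peak of Psmb10, Psmb1, Psmd13 and Psmb5, placed by the distance of its centre from the principal transcript's 5′ end (x axis, bp, positive into the gene) and by its percentile in its library (y axis), 1 colour per replicate. At Psmb10 the peaks at the principal 5′ end lie at 26.7 and 41.0 and the high peak lies 1343.5 bp inside the gene, while Psmb5 has 1 peak per library, next to its 5′ end.

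The 6 ATPase genes of the 19S particle all had a promoter peak, with medians of 94.6 and 94.3, and spanned nearly the whole range of the members. Psmc5, at 99.6 and 98.5, was highest in replicate 1, and Psmc4, at 98.8 and 98.9, was highest in replicate 2. Psmc1 was the lowest of all members, at 81.5 (rank 17543 of 94786) in replicate 1 and 78.8 in replicate 2. The gap between Psmc5 and Psmc1 was wider than the difference between libraries at either gene.

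The 11 non-ATPase subunit genes all had a promoter peak, with medians of 95.6 and 94.8, the highest of the 6 roles in replicate 1 and in replicate 2. Psmd4, a ubiquitin receptor, was highest by the mean of both libraries, at 97.2 and 97.8, and in replicate 1 the scaffold gene Psmd2 lay above it, at 98.0 (95.9 in replicate 2). Psmd14, the deubiquitinase of the lid, was lowest in both, at 88.5 and 86.3. The other 9 ranged from 89.5 to 98.0 in replicate 1 and from 88.8 to 97.3 in replicate 2.

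Psmd13, a lid subunit, was the gene whose highest peak differed between libraries, since it had 2 strong peaks in each. The peak over its 5′ end was at 95.6 in replicate 1 (chr7:140881821-140881980) and at 87.3 in replicate 2. The peak centred 372.5 bp downstream (chr7:140882261-140882420) was at 95.2 in replicate 1 and 94.8 in replicate 2. The order of these peaks therefore rested on the peak over the 5′ end, which moved more between libraries than the other.

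The 4 activator genes and Psmf1 all had a promoter peak, with medians of 91.7 and 90.1. Psme2, which with Psme1 forms the interferon-induced activator PA28, was highest by the mean, at 94.8 and 96.3, below Psme4 in replicate 1 and above it in replicate 2. That highest peak of Psme2 covered the 5′ end of Rnf31 in both libraries, and a separate peak at the start of Psme2 was at 93.6 and 95.8. The place of Psme2 above Psme4 by the mean rested on the peak over the 5′ end of Rnf31. Psme1 was the lowest of this role, at 83.5 and 85.7. Psme4, the activator PA200, was at 95.5 and 94.9, and Psme3, the nuclear activator PA28 gamma, at 91.7 and 90.1. The inhibitor gene Psmf1 was at 88.9 and 87.8. The 3 interferon-induced members thus had promoter peaks of unequal rank in both libraries: Psme2 lay above the median of all genes with a peak, and Psme1 and Psmb10 lay below it.

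The 6 assembly chaperone genes all had a promoter peak, with medians of 94.9 and 93.7. Psmg1, a chaperone of the alpha ring, was highest, at 98.5 and 96.1, and its partner in the same heterodimer, Psmg2, was lowest, at 83.5 and 82.5. Psmg2 had a second peak of nearly the same rank over its 5′ end, at 82.5 in replicate 1 and 80.2 in replicate 2. Psmd5 and Psmd9, which assist the assembly of the ATPase ring, were at 94.5 and 95.3 and at 95.4 and 94.7.

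The other genes of the proteasome pathway were counted from a list of 28, among them ubiquitin genes, shuttle factors and the regulators of proteasome gene expression. All 28 had a promoter peak in both libraries, with medians of 96.5 and 96.8. Nfe2l1, the transcription factor that raises proteasome gene expression when proteasome activity is low, was at 95.6 and 98.6. Nfe2l2, its relative of the oxidative stress response, was at 99.5 and 99.2. Pomp, the maturation factor of the core, was at 88.7 and 89.7. Tmub1 was the lowest of the list in replicate 1, at 81.8, and Ngly1, the enzyme that deglycosylates NFE2L1, in replicate 2, at 81.0.

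The peaks of the members sat close to the 5′ end. The centre of the highest peak lay at a median of -26.5 bp from the nearest 5′ end in replicate 1 and -20.5 bp in replicate 2 (negative values upstream), against -35.5 bp and -37.5 bp over all genes with a peak in both libraries. It lay within 150 bp at 40 of 43 members (93.0%) in each library, against 78.0% and 78.3% of those genes. By the replicate 1 peak, the share was 92.8% of the ribosomal protein genes with a peak in both libraries, near that of the members. The 3 members outside that distance were the same in both libraries: Psma5, centred at 174.5 and 164.5 bp, Psmg2, at -268.5 and -278.5 bp, and Psme2, at -557.5 and -547.5 bp. In replicate 1, 21 members had 1 promoter peak, 18 had 2 and 4 had more. In replicate 2, the counts were 23, 16 and 4. Over all genes with a peak they were 5351, 4450 and 4356 of 14157 in replicate 1 and 6303, 4159 and 3173 of 13635 in replicate 2. Over the 69 ribosomal protein genes with a peak they were 38, 23 and 8 in replicate 1 and 41, 24 and 4 in replicate 2.

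In 10 of the 43 members with a peak (23.3%) the highest peak was shared in both libraries, meaning that another protein-coding gene had a 5′ end within 1 kb of it. The share over all genes with a peak was 19.1% in replicate 1 and 19.6% in replicate 2, so that the members lay near the background. In 8 of the 10 the genes were transcribed away from each other, from 5′ ends 32 to 595 bp apart. The closest pair was Psmc2 with Dnajc2, a ribosome-associated chaperone gene, at 32 bp, with Psmc2 at 89.0 and 88.9. Psma2 lay 75 bp from Mrpl32 (a mitochondrial ribosomal protein), Psmc5 75 bp from Ftsj3, Psma7 76 bp from Ss18l1, and Psmd13 99 bp from Sirt3 (a mitochondrial deacetylase). The upstream 5′ end of Psmb1 lay 137 bp from Tbp, the TATA-binding protein gene. Psmg2 lay 263 bp from Cep76 (a centrosomal protein), and Psme2 lay 595 bp from Rnf31, a ubiquitin ligase gene.

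The remaining pairs were of another kind. The 5′ end of AY074887 lay 208 bp inside Psma4 on the opposite strand, and Gm26938 lay on the same strand as Psmg3 with its 5′ end 478 bp away. The median percentile of the 10 members that shared a peak was 94.6 in replicate 1 and 91.9 in replicate 2, and that of the 33 others was 94.5 and 93.3. A peak shared by such genes cannot be assigned to either of them from these data.

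The DNA between the 5′ ends of the closest pairs is shown from the strand of the proteasome gene, with any of the 15 motifs in capitals, because all 4 spacers lay whole within the shared peak of both libraries.
Psma2 and Mrpl32, chr13:14613166-14613239, plus strand: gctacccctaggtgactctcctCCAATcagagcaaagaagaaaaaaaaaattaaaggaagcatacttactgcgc
Psmc2 and Dnajc2, chr5:21785252-21785282, plus strand: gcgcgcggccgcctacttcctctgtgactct
Psmc5 and Ftsj3, chr11:106256080-106256153, plus strand: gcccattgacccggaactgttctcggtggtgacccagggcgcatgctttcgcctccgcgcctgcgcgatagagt
Psma7 and Ss18l1, chr2:180042434-180042508, minus strand: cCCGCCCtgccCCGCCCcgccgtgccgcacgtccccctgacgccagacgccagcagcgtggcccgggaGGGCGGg
The spacers of Psmc2 and Psmc5 held none of the 15 motifs whole. An SP/KLF site (GGGCGG, the site of SP and KLF zinc finger proteins) crossed the edge of the Psmc5 spacer, in a footprint of both libraries. A CCAAT box ended just outside the Psmc2 spacer. The spacer of Psma2 held 1 CCAAT box, and that of Psma7 held SP/KLF sites near both ends. That these letters are absent from a spacer says nothing of other sites in it.

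All 43 members with a promoter peak had at least 2 footprints in it in each library. Any footprint was present at 99.1% of all genes with a peak in replicate 1 and 98.3% in replicate 2, so that presence alone does not set the members apart. The members held 185 footprints in replicate 1 and 188 in replicate 2, of which 138 (74.6%) and 138 (73.4%) overlapped a footprint of the other library. The sharing of footprints between libraries was counted for the members only, so it does not set them apart from all genes. Footprints took up a median of 35.5% and 36.7% of the bases of the peak, against 33.3% in both libraries over all genes with a peak. Psme1 had the lowest share, 13.5% and 16.4%. Psmg4 had the highest in replicate 1, 60.0%, but 33.1% in replicate 2, and Psmg1 had the highest in replicate 2, 56.0%, against 53.9% in replicate 1. Psmb3, the member with the highest peak, was at 54.5% and 55.9%. Every member but Psmd13 had a footprint shared by both libraries within its highest peaks. The highest peaks of Psmd13 did not overlap, but in the peak over its 5′ end chr7:140881863-140881898 was a footprint of both libraries.

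**Figure D4:**
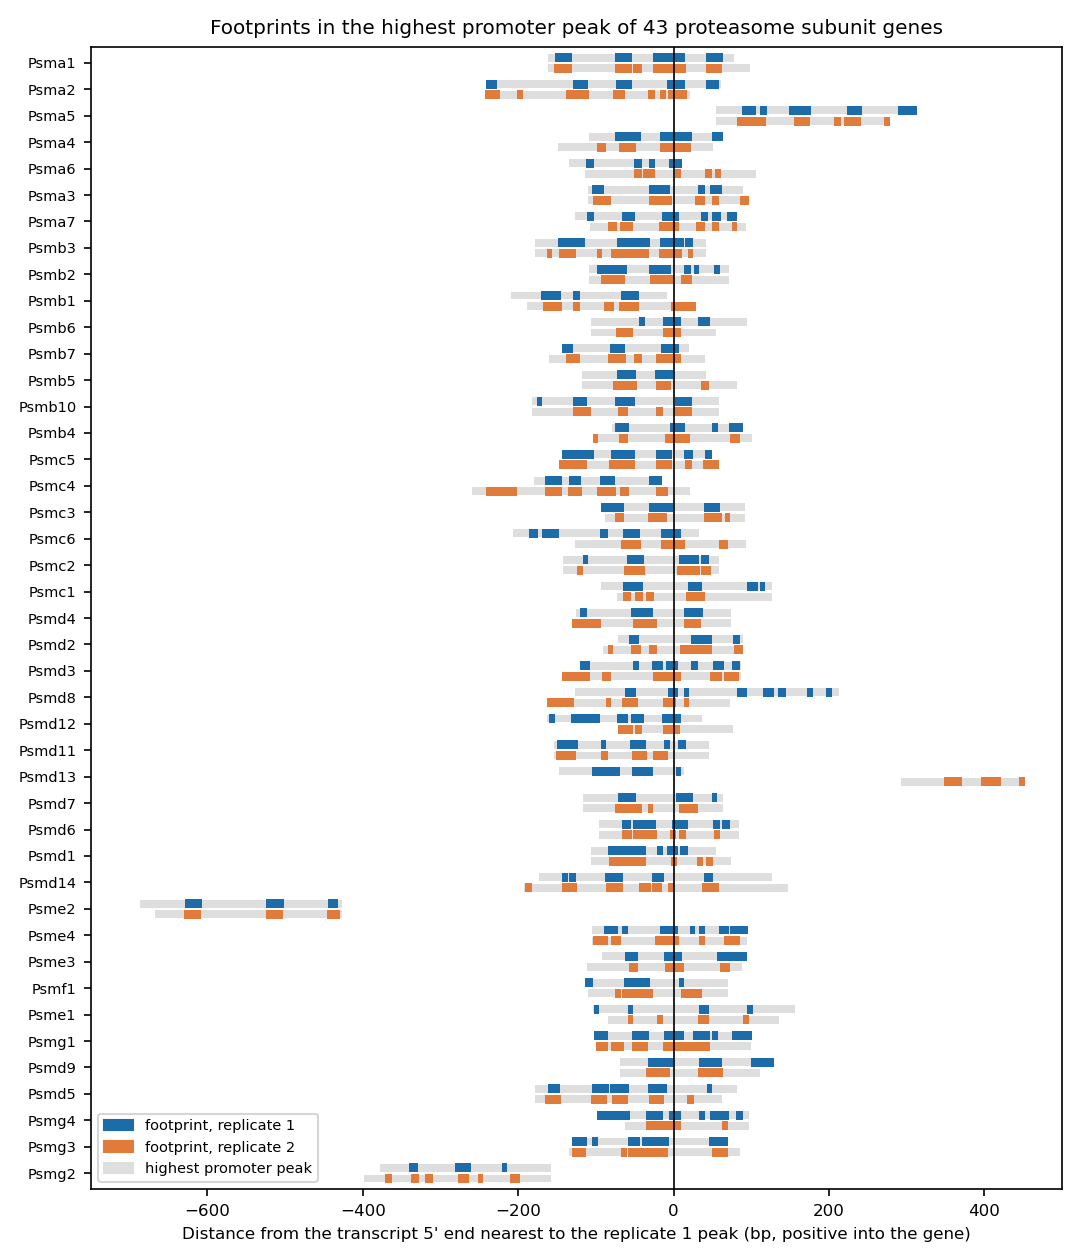
Footprints (coloured bars, 1 colour per replicate) within the highest promoter peak (grey bars) of 43 proteasome subunit genes, by distance from the transcript 5′ end nearest to the replicate 1 peak (x axis, bp, positive into the gene), in the order of the roles. Most peaks cover the 5′ end, those of Psme2 and Psmg2 lie upstream and that of Psma5 downstream, and the peaks of Psmd13 do not overlap between libraries.

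Among 15 motifs searched on both strands in the window of 300 bp around the 5′ end nearest to the replicate 1 peak (at Psmb10 an inner one), the ETS motif CCGGAAG stood out by its count. It was present at 17 of 43 members (39.5%), against 17.4% of the 13517 genes with a promoter peak in both libraries, 12.2% of all autosomal protein-coding genes and 39.1% of the ribosomal protein genes with a peak. The members that held it were mostly of the 19S particle, with 10 of 17 genes, against 3 of 15 genes of the 20S particle with a peak. They were Psmc1, Psmc2, Psmc3 and Psmc6 among the ATPases, Psmd2, Psmd4, Psmd6, Psmd7, Psmd11 and Psmd12 among the non-ATPase subunits, Psma6, Psmb7 and Psmb10 in the core, Psme3 and Psme4 among the activators and Psmg1 and Psmg3 among the chaperones. The 19 sites had a median position of -42 bp, and 14 lay within 75 bp of the 5′ end. No test was made of these counts.

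An ETS site was not often footprinted. Within the highest peaks of the members, 6 of 20 sites in replicate 1 and 7 of 24 in replicate 2 lay whole in a footprint, against 730 of 2371 and 729 of 2430 such sites over all genes, so that the members lay near the background. The 5 members with a site footprinted in both libraries were Psmc1, Psmc6, Psmd7, Psme3 and Psme4, whose stretches are printed above. Of these, Psmc1 and Psme4 had peaks far apart in rank, at 81.5 and 78.8 and at 95.5 and 94.9.

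**Figure D5:**
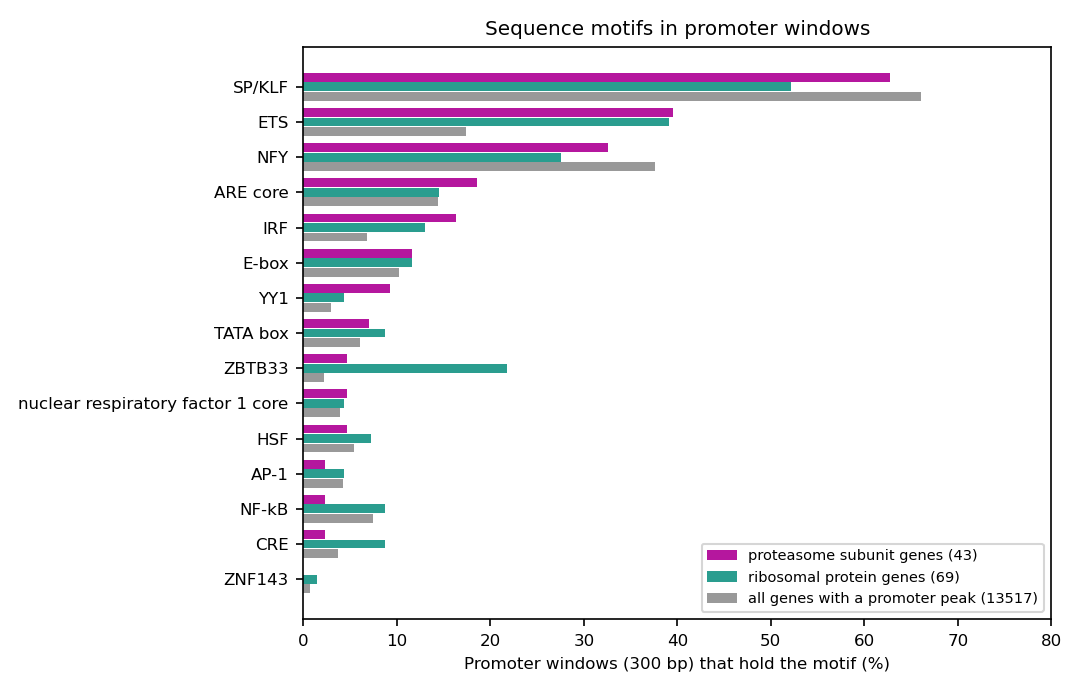
Share of promoter windows of 300 bp (x axis, %) that hold each of the 15 motifs, for proteasome subunit genes, ribosomal protein genes and all genes with a promoter peak in both libraries. ETS is at 39.5%, 39.1% and 17.4%. In the same order, SP/KLF is at 62.8%, 52.2% and 66.02%, and NFY at 32.6%, 27.5% and 37.6%.

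The ARE core TGACNNNGC was present at 8 of 43 members (18.6%), against 14.4% of all genes with a peak. These were Psmb2, Psmb5, Psmb6, Psmb10, Psmc6, Psmd7, Psmd9 and Psmd12. It was footprinted in both libraries at Psmb5 and Psmd9, in the stretches centred at -13 bp and -19 bp. Of the 10 sites within the members' peaks 2 were footprinted in each library, against 23.7% and 25.5% of the sites over all genes. At Psmb5 the motif is part of the footprint closest to the 5′ end, and at Psmd9 it overlaps an SP/KLF site. The CRE, TGACGTCA, was present at 1 member, Psmb2 (2.33%), against 3.76% of all genes, and there the footprint of both libraries also held a CCAAT box on the opposite strand, which overlaps the CRE by 1 base. Over all genes, 87.3% and 86.9% of the CRE sites within the peaks were footprinted.

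The SP/KLF motif was the most frequent, at 27 of 43 members (62.8%), close to the 66.02% of all genes with a peak. Of its sites in the members' peaks 62.5% and 77.1% were footprinted, against 51.0% and 58.2% over all genes. A site footprinted in both libraries was present in the highest peak of Psma1, Psma4, Psma7, Psmb1, Psmb7, Psmb10, Psmc3, Psmc4, Psmc5, Psmc6, Psmd2, Psmd5, Psmd6, Psmd8, Psmd9, Psmd14, Psme2, Psme3, Psme4, Psmg2 and Psmg4. The NFY motif CCAAT was present at 14 members (32.6%), against 37.6%, and was footprinted in both libraries at Psma3, Psmb2, Psmb3 and Psmd4. Of the 4 members with a CCAAT footprinted in both libraries, Psmb3 and Psmb2 were the first and second beta subunit genes by rank. Psmd4 was at 97.2 and 97.8, and Psma3 at 89.1 and 92.3. Whether this footprint goes with peak rank was not tested.

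The IRF motif GAAANNGAA, the site of interferon regulatory factors, was present at 7 members (16.3%), against 6.81% of all genes with a peak. They were Psma4, Psmb3, Psmb4, Psmd4, Psmd7, Psmd9 and Psmg4, and not Psmb10, Psme1 or Psme2. Psme1 held an IRF site outside the window, 103 bp into the gene, which lay within its highest peak in both libraries but in no footprint. The site of Psmb4 was footprinted in both libraries. Of the 7 IRF sites within the members' peaks 2 were footprinted in replicate 1 and 1 in replicate 2, against 12.8% and 8.45% of the sites over all genes. YY1 (AAGATGGCG) was present at 4 members, Psmb6, Psmb7, Psmc5 and Psmd7 (9.30%, against 2.97%), and was footprinted in both libraries at Psmd7 only. The core of the nuclear respiratory factor 1 site (CGCATGCG) was present at 2 members, Psma2 and Psmg1 (4.65%, against 3.90%), and was footprinted in both libraries at both. Of its 3 sites within the members' peaks 2 were footprinted in each library, against 88.9% and 90.6% of the sites over all genes. ZBTB33 (TCTCGCGA) was present at Psmb2 and Psmd5 (4.65%, against 2.26%) and was footprinted in both libraries at Psmd5. Of its 6 sites within the members' peaks 4 were footprinted in replicate 1 and 2 in replicate 2, against 71.0% and 67.9% of the sites over all genes.

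The other motifs were rare at the members. The E-box CACGTG was present at 5 (11.6%, against 10.2%), the TATA box TATAAA at 3 (6.98%, against 6.04%), HSF sites (GAANNTTC) at 2 (4.65%, against 5.40%), NF-kB sites (GGGNNTTCC) at 1 (2.33%, against 7.502%), AP-1 sites (TGANTCA) at 1 (2.33%, against 4.28%) and the ZNF143 motif ACTACAATT at 0, against 0.695%. None of these was footprinted in both libraries at a member. In all, 31 of the 43 members had at least 1 of the 15 motifs in a footprint of both libraries within the highest peak. The same count was not made over all genes, so it does not set the members apart. A motif match is a description of the sequence and does not show which protein, if any, protected it.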

How the data were processed

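DNase-seq of mouse lung was analysed from the files of 2 libraries. Alignment was to mm10, per the listings deposited with the files. For the aligner and the peak caller, names and versions were not given in the sources used. The authors called peaks for each library alone, and their deposited score per peak, of unstated scaling, was used only for ranks within a library. The false discovery rates (p-value or q-value tracks) deposited by the authors list bases at 0.05 or below, and the deposited footprints carry the constant p-value threshold 0.01 with no value of their own. Of the 2 peak lists per library the shorter one was used.

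Transcript 5′ ends came from GENCODE M21 and sequence from GRCm38. Peaks were assigned, footprints counted (overlap of 1 bp or more) and motifs searched with Python 3.11.15, pandas 2.3.3, numpy 2.4.6 and pysam 0.24.0, and the interval code was checked on simulated data. With 1 group, no test was run. The members, gene lists and motifs were chosen with earlier results of these data known. Named were all members without a peak, with a shared or non-overlapping peak or with a footprinted motif, the highest and lowest of each role by mean percentile, and the tissue-restricted and interferon-induced members. Genes of the other lists, and further members given for context, were named after their values were seen.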

Additional observations from a re-analysis of the deposited data

How the results depend on the processing

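The count of members whose promoter held a peak in each library stayed between 40 and 43 when the window was set to 500 or 2500 bp, when only outermost or principal 5′ ends were counted (principal ends were an alternative chosen after seeing the data), in the larger peak lists and among the higher-scoring 50% of peaks. The count of shared peaks stayed between 9 and 13 (13 with long noncoding genes included) and that of members with a footprint between 39 and 43. The median percentile, 93.9 as the mean of both libraries, was 96.0 in the larger lists and 87.9 among the higher-scoring 50% of peaks, where the ranks are taken over other peaks by construction. With 1 library left out, the members with a peak numbered 43, those sharing it 10 and those with a footprint 43, and the median percentile ran from 93.3 to 94.5. The ETS motif was present at 15 members in a shorter window around the peak centre and at 19 in the whole peak, against 17 in the window. Of the 15 motif counts, 5 moved by over 1.5 times in the shorter window and 3 in the whole peak, all of motifs present at 5 members or fewer. No paired analysis was possible because there was 1 group. The depth of the libraries is unknown, 2 libraries give only a coarse spread, and alleles of the hybrid were not separated.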

Other observations

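The windows around the 5′ ends of the members with a peak had a median GC content of 58.7%, against 61.3% over all genes with a peak in both libraries and 56.3% over the ribosomal protein genes with a peak. The lowest GC content among these members was 44.3%, at Psmc1, which was also the member with the lowest promoter peak, and the highest was 75%, at Psma7, at percentiles 89.9 and 86.9. The ZBTB33 motif was present at 4.65% of the members, against 21.7% of the ribosomal protein genes, while the ETS motif had nearly the same share in both sets.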
